A study of Rattus norvegicus with 20 samples.

Results

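The transcripts described here gave a clear liver signal in some rat strains or lines and almost none in others. They were chosen by their measured group means: a ProbeSet, the set of probes that reads 1 transcript on the array, belonged when its highest group mean was at least 6.5 on the log2 scale, its lowest was under 4 and the gap between them was at least 2.5. This held for 23 of 15866 ProbeSets that are not array controls. They carried 18 named genes, with Agtr1a and Lox named by 2 ProbeSets each, and 3 ProbeSets had no gene name. A group with a mean under 4 is said to lack the transcript below, which sets only a lower bound on the difference. This speaks of the mean, and single rats of such a group could lie above 4. In 17 of the 23 members at least 1 group had rats on both sides of 4.

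Liver mRNA was measured in 20 male rats aged 10 to 12 weeks with Affymetrix RAE230A arrays, 1 rat per array and 4 rats per group. The groups were Sprague-Dawley (S-D, an outbred stock), Long-Evans (L-E, inbred), Han/Wistar (H/W, a closed colony) and Line-A and Line-C, both bred from crosses of L-E and H/W. S-D, L-E and Line-C carry wild-type Ahr, whereas H/W and Line-A carry a variant Ahr. All rats had corn oil by gavage 19 hours before, although the S-D sample titles say only control. By the paper's account, S-D rats and H/W rats are not strictly alike in genotype within their groups. Each line stands for 1 breeding line from its cross.

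The arrays were scanned on 5 days. All S-D arrays were scanned on a day of their own by an operator of their own, so S-D and scan day cannot be told apart. Line-A and Line-C shared 1 day, and L-E and H/W shared 2 days. Of these, 1 held 3 L-E and 2 H/W arrays, and the other held 1 L-E and 1 H/W array. The control ProbeSets at the 3′ end of Gapdh exceeded those at its 5′ end by 0.54 to 0.58 in S-D, 0.23 to 0.34 in L-E, 0.33 to 0.81 in H/W, 0.17 to 0.42 in Line-A and 0.38 to 0.50 in Line-C on the log2 scale, and the part of this in the results was not tested. Of 10 hepatocyte markers, 9 were on the array and every one was expressed, with a mean signal over the list of 13.60 to 14.03 in all 20 rats.

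An inbred or line-bred animal carries its own set of regulatory and coding variants, and a transcript made in 1 strain may be made weakly or not at all in another. A ProbeSet reads its transcript through short probes near 1 stretch of the RNA, so its signal depends both on the amount of that RNA and on how well the probes match the strain's sequence. AHR, the aryl hydrocarbon receptor, is a ligand-activated transcription factor that switches on genes of foreign-compound metabolism, and the variant in H/W and Line-A alters its transactivation domain. The members range from enzymes of the hepatocyte (Ugt2b, Adh4), a receptor of the renin-angiotensin system (Agtr1a) and secreted proteins (A2m, Serpina7, Spink1, Lox) to membrane proteins (Slc6a6, Itga1, Marveld1), immune genes (RT1-N2, Ubd), RNA-binding proteins (Ythdf2, Ddx6) and regulators of transcription (Nfat5, Tle1).

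Promoter sequence was at hand in RefSeq (build GRCr8, from Brown Norway, none of the groups studied) for 14 of the 18 genes, over 250 bases before and 50 after the start. It was not given for A2m, Ddx6, Lox and Nfat5. The promoters of Agtr1a (chr17:34435383-34435682, minus strand) and Marveld1 (chr1:250903092-250903391, plus strand) are shown because both transcripts were missing from the same groups. The Rab14 member was lacking in those groups too, and its promoter is not shown. The promoter of Ugt2b (chr14:20985199-20985498, plus strand) is shown because Ugt2b had the largest gap of all. Those of Ythdf2 (chr5:149690009-149690308, minus strand) and Slc6a6 (chr4:125752252-125752551, plus strand) are shown because they alone among the 14 held GCGTG, the core of the element that AHR binds, on either strand. Capitals mark GCGTG or TATAAA, the letters of the TATA box, or their reverse complements CACGC and TTTATA, and the 2 motifs do not overlap.
Agtr1a: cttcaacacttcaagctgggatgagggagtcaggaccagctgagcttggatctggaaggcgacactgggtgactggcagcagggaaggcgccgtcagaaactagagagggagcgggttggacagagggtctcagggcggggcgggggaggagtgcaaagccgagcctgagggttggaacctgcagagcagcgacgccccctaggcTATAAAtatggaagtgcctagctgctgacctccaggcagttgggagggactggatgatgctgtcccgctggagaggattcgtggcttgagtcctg
Marveld1: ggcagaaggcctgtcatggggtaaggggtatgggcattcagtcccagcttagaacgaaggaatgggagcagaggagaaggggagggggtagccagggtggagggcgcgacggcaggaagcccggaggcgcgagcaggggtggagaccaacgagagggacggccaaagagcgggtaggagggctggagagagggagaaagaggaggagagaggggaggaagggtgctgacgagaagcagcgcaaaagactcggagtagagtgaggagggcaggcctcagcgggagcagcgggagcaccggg
Ugt2b: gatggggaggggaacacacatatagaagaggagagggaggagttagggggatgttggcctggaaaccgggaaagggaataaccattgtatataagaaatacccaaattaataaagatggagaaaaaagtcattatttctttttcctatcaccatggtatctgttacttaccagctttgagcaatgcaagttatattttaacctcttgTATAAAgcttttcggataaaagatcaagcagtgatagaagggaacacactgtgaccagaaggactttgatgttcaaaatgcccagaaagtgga
Ythdf2: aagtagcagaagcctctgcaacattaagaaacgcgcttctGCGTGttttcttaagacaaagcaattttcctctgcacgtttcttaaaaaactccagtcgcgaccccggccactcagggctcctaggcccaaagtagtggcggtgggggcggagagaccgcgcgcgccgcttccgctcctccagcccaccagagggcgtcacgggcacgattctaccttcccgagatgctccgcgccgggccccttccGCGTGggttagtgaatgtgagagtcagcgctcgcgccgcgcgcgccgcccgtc
Slc6a6: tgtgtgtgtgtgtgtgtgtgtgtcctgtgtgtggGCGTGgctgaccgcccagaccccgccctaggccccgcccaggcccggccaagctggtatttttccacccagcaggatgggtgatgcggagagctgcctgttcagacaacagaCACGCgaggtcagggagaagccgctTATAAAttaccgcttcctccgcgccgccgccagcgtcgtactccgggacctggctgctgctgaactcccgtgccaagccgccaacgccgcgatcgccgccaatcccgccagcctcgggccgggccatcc
GCGTG thus lay in 2 of 14 member promoters (14.3%), beside 9939 of 33469 promoters of the same length (29.7%). TATAAA, a motif added to the search after the data were seen, was found in 6 of the 14 (42.9%), those of Adh4, Agtr1a, Olr59, Serpina7, Slc6a6 and Ugt2b, beside 4760 of all (14.2%). In Agtr1a and Ugt2b it began 45 and 43 bases before the start. These matches describe letters in the reference strain, and the sequences of the 5 groups were not analysed here.

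The 23 ProbeSets fell into 10 patterns of lacking groups. Line-C lacked the most, 14 ProbeSets of 9 genes, and L-E lacked 10 ProbeSets of 9 genes. Line-A lacked 5, H/W 4 and S-D 3. The members were high most often in S-D, whose mean was the highest for 13, beside 4 for Line-A and 2 each for L-E, H/W and Line-C. Some markers of other cell types were also highest in S-D. The mean over 5 endothelial markers was 6.58 to 6.73 in S-D and 6.15 to 6.37 in all other rats (Pecam1 and Vwf under 4 in every group), with 1 of the 5, Kdr, past the F-test described below. Of 4 cholangiocyte markers Epcam passed it, with 6.45 ± 0.27 in S-D and means of 5.26 to 5.82 elsewhere (SD, n = 4), while Krt7 and Spp1 were under 4 in every group. The list mean was 3.92 to 4.11 in S-D and 3.62 to 3.97 in the others. The part of these markers in the members' levels was not tested. A single group lacked the transcript in 14 cases, 2 groups lacked it in 7 and 4 groups in 2. In 8 members every group was either at least 6.5 or under 4, and in 15 at least 1 group lay between. In 22 of 23 every rat of the highest group lay above every rat of the lowest, where 73.8% of all 15866 ProbeSets did so, and nothing is read from this because the members were selected on these means. A stricter description, in which all rats of the lacking groups lay below all rats of all other groups, held for 11. It held for 11.1% of the 614 ProbeSets with group means on both sides of 4, and nothing is read from this either, since the members were chosen for wide gaps.

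**Figure D1:**
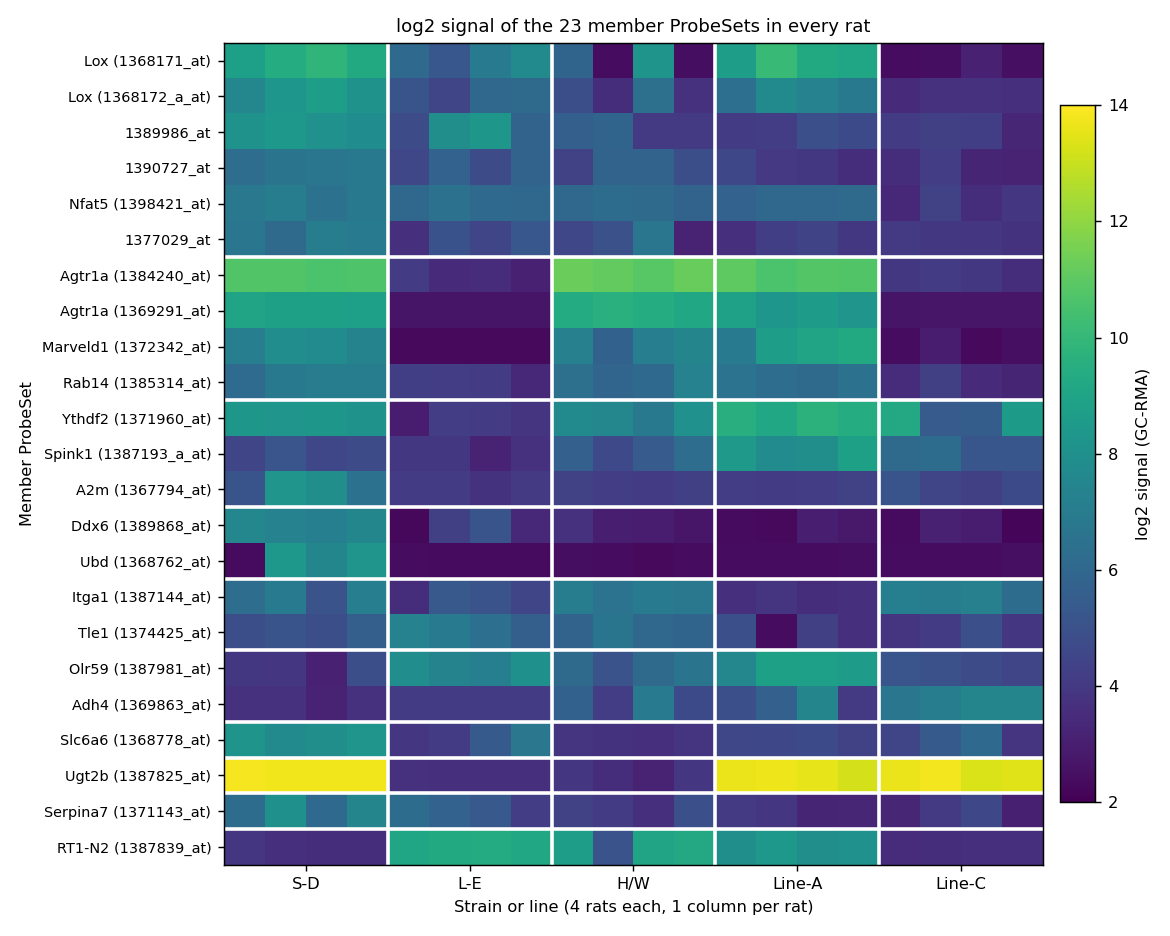
log2 signal (colour) of the 23 member ProbeSets (rows, grouped by which groups lack them) in each of the 20 rats (columns, 4 per strain or line). The Ugt2b row is dark in all 8 L-E and H/W rats and bright in every other rat, and the Ubd row is bright in 3 of 4 S-D rats alone.

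Agtr1a, Marveld1 and Rab14 were lacking in L-E and Line-C and seen in S-D, H/W and Line-A. These 4 ProbeSets were the only ones in which the lacking groups were exactly L-E and the line that shares its Ahr genotype, while S-D, also wild-type for Ahr, had the transcripts. No member was lacking in L-E, Line-C and S-D alone (0 ProbeSets), and none in H/W and Line-A alone (0 ProbeSets). The pattern of lacking groups therefore matched the Ahr genotype of all 5 groups in no member, although 1 ProbeSet, that of Igfbp1 (1368160_at), came to be lacking in H/W and Line-A alone when L-E rat 1 was left out or the upper limit was set to 6.

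Agtr1a (chr17:34383397-34435523) encodes the type 1a angiotensin receptor, through which angiotensin II raises blood pressure. Its ProbeSet 1384240_at gave 10.73, 10.76, 10.59 and 10.71 in S-D, 11.27, 11.14, 10.87 and 11.22 in H/W and 11.02, 10.58, 10.79 and 10.76 in Line-A. The rats of L-E gave 4.07, 3.47, 3.5 and 3.12 and those of Line-C 3.96, 4.10, 3.96 and 3.59. No rat lay between 4.10 and 10.58, and the highest mean was at least 140-fold over the limit of 4. The other ProbeSet, 1369291_at, which is a member too, ranged from 8.28 to 9.62 in the rats of S-D, H/W and Line-A and from 2.67 to 2.74 in L-E and Line-C. H/W exceeded L-E by 7.64 and 7.2 on the log2 scale within the 2 scan days they shared (1384240_at), and by 6.84 and 6.67 in 1369291_at. The second value of each pair was 1 H/W rat against 1 L-E rat. The lines, scanned on 1 day, differed by 6.88 and 5.78. None of 13 other ProbeSets of the renin-angiotensin system passed the moderated F-test over the 5 groups (adjusted p under 0.001, limma), which 4.60% of all 15923 ProbeSets passed. Agt, the angiotensinogen that supplies the ligand, lay between 12.85 ± 0.10 in S-D and 13.09 ± 0.06 in Line-C (SD, n = 4), and Agtr1b, the closest relative of the receptor, was under 4 in all groups (2.49 to 2.59).

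Marveld1 (chr1:250903342-250907393) encodes a membrane protein with a MARVEL domain. Its signal (1372342_at) was 7.15, 7.90, 7.77 and 7.38 in S-D, 7.21, 5.74, 7.13 and 7.48 in H/W and 6.91, 8.67, 9.0 and 9.27 in Line-A. It was 2.30, 2.30, 2.30 and 2.29 in L-E and 2.39, 2.90, 2.32 and 2.5 in Line-C. The groups did not overlap, with 1 H/W rat and 1 Line-A rat at the lower edge of their groups. The second ProbeSet, 1375180_at, was under 4 in all rats and so could not show whether the gene followed, but its 3 highest values, 2.06, 2.66 and 2.59, were those of Line-A rats 2 to 4, which were also the highest in the member.

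Rab14 (chr3:38899430-38920572), a small GTPase of endosome and Golgi traffic, had 4 ProbeSets that did not move together. The member, 1385314_at, was 6.19, 6.85, 7.03 and 7.03 in S-D, 6.44, 5.92, 6.09 and 7.30 in H/W and 6.59, 6.29, 6.14 and 6.51 in Line-A, against 4.24, 4.20, 4.11 and 3.35 in L-E and 3.54, 4.27, 3.46 and 3.25 in Line-C. The lacking rats ended at 4.27 and the others began at 5.92, with several L-E rats just over the limit. Beside it, 1376796_at was lower in every L-E and Line-C rat (7.22 to 7.66) than in any other (7.93 to 8.66), a difference of 0.90. Another ProbeSet, 1367884_at, differed by 1.03, with 9.73 to 10.11 in S-D and 7.32 to 7.90 in Line-C. L-E (7.68 to 8.56) overlapped H/W (8.28 to 8.57) and Line-A (8.25 to 8.57) there, and without S-D the difference was 0.54. In the opposite direction, 1375687_at differed by -0.65, with 11.58 to 12.04 in Line-C and 10.19 to 10.48 in H/W. Each of the 3 passed the F-test (adjusted p of 2.06e-05, 6.48e-07 and 0.000125, limma). The gene was thus well above the limit in L-E and Line-C by the other ProbeSets, and the member alone was lacking there.

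**Figure D2:**
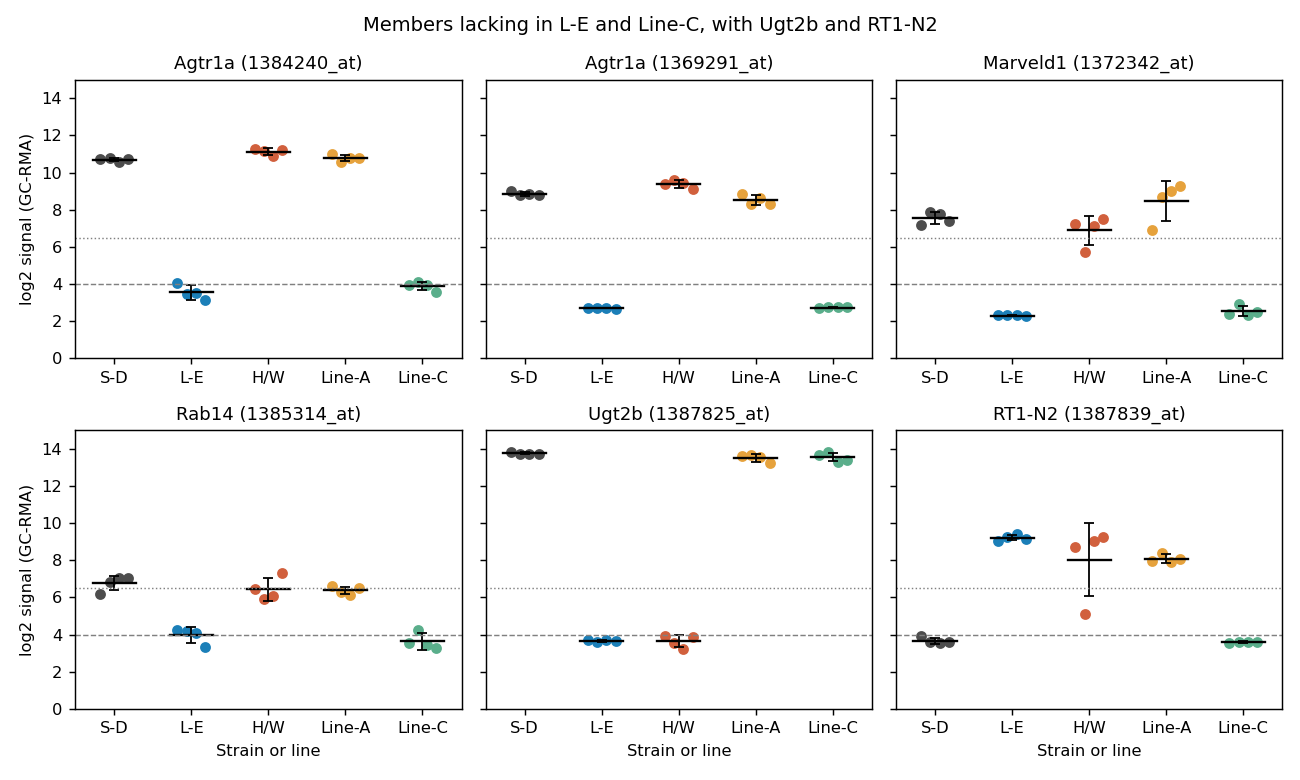
log2 signal per rat (points), with group mean (line) and SD (bar, n = 4), for the 4 ProbeSets lacking in L-E and Line-C and for Ugt2b and RT1-N2. The dashed line marks 4 and the dotted line 6.5, and L-E and Line-C sit near or under the dashed line in the Agtr1a, Marveld1 and Rab14 panels.

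Ugt2b had the largest gap, 10.12. It encodes a UDP-glucuronosyltransferase, an enzyme that couples glucuronic acid to steroids and foreign compounds (chr14:20985449-21006267). Its ProbeSet 1387825_at was among the brightest of the members, S-D giving 13.83, 13.74, 13.72 and 13.75, Line-A 13.63, 13.68, 13.55 and 13.23 and Line-C 13.67, 13.81, 13.32 and 13.41. In L-E it was 3.70, 3.62, 3.68 and 3.64 and in H/W 3.90, 3.57, 3.20 and 3.89. Both lines thus gave a signal close to that of S-D although neither parental strain did, and the lowest rat of the 3 groups with the transcript, 13.23, lay far above the highest without it, 3.90. The L-E and H/W arrays had other scan days and chip lots than those of the 3 groups with the transcript. This contrast and the scan day or chip lot therefore cannot be told apart. The highest mean was at least 868-fold over the limit. The second ProbeSet, 1385247_at, split the rats in the same way, with 4.16 to 4.72 in L-E and H/W and 10.15 to 10.69 in the other 3 groups. Its difference was 5.94 (adjusted p of the F-test 1.57e-17, limma). Only Ugt2b was lacking in both parents and seen in a line.

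Genes of this family resemble each other in sequence, and the match of these probes to relatives was not tested. Of 8 other UDP-glucuronosyltransferase ProbeSets 2 passed the F-test, the second one of Ugt2b and Ugt2b35, 202 kb away, whose means spanned only 13.11 ± 0.12 in H/W to 13.76 ± 0.13 in S-D (SD, n = 4). Ugt2b15, with 12.05 ± 0.19 in H/W and 12.83 ± 0.17 in S-D, did not pass. Ugt2b35 and Ugt2b15 were thus high in L-E and H/W, where Ugt2b was lacking, whereas Ugt2a1, Ugt2b7 and Ugt8 were under 4 in every group.

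RT1-N2, a non-classical class I gene of the rat major histocompatibility complex (chr20:2645980-2650260), was lacking in S-D and Line-C. Its rats gave 3.90, 3.61, 3.57 and 3.58 in S-D and 3.52, 3.58, 3.62 and 3.61 in Line-C, whereas L-E gave 9.05, 9.27, 9.40 and 9.16, H/W 8.74, 5.08, 9.03 and 9.26 and Line-A 7.97, 8.41, 7.92 and 8.08. The groups did not overlap. H/W rat 2 stood between them, and with it left out the H/W rats lay between 8.74 and 9.26. Line-C lay 4.44 below the lower of its parents, while the mean of Line-A, 8.09, lay between them. That position rested on H/W rat 2, without which the H/W mean was 9.01 and every Line-A rat (up to 8.41) lay below every rat of L-E and H/W (from 8.74). None of 23 other class I ProbeSets in the list fixed for this family passed the F-test, and the match of the RT1-N2 probes to relatives was not tested. Outside that list, RT1-CE12, 641 kb from RT1-N2, passed it (adjusted p 9.37e-10, limma), with a mean of 7.35 in S-D and 10.41 to 10.96 in the other groups, Line-C among the high ones.

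Line-C alone lacked Lox, Nfat5 and 3 ProbeSets without a gene name. Lox encodes lysyl oxidase, which cross-links collagen and elastin outside the cell (chr18:48162889-48175640). Its 1368171_at was 2.39, 2.45, 3.12 and 2.48 in Line-C and 8.71, 10.07, 9.27 and 9.07 in Line-A. In S-D it was 8.77, 9.41, 9.86 and 9.31 and in L-E 6.10, 5.26, 6.92 and 7.71. The H/W rats were split, with 5.86 and 8.23 in rats 1 and 3 and 2.42 and 2.45 in rats 2 and 4, the last 2 at the level of Line-C. The other member ProbeSet of Lox, 1368172_a_at, split the same rats, with 4.90, 3.55, 6.43 and 3.71 in H/W, 3.46, 3.70, 3.69 and 3.67 in Line-C and 6.39, 7.71, 7.31 and 6.84 in Line-A. H/W rats 2 and 3 were scanned on the same day and lay on either side. The Gapdh difference between the 3′ and 5′ ends had the same order as Lox (1368171_at) in these rats, at 0.33 and 0.36 in rats 2 and 4, 0.47 in rat 1 and 0.81 in rat 3, and its part in the split was not tested.

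Lox is made by stellate cells and fibroblasts, and in whole liver fewer cells of a type and less RNA per cell cannot be told apart. All 10 stellate and fibroblast markers were on the array (13 ProbeSets, Des and Lum under 4 in every group). Their mean, with the brightest ProbeSet of each gene, was 5.30 to 6.14 in S-D, 4.52 to 4.84 in L-E, 4.60 to 5.23 in H/W, 4.76 to 4.96 in Line-A and 4.87 to 5.42 in Line-C. The range of this mean in Line-C, which lacked Lox, overlapped that in Line-A, which had it, and the part of these cells in the Lox signal was not tested. In S-D Lox and the markers were both high, and 3 of the 13 marker ProbeSets passed the F-test, those of Col1a2, Col3a1 and Lrat. Of 8 other ProbeSets for enzymes of collagen cross-linking 1 passed, that of Plod1, with 9.04 ± 0.10 in Line-C and 8.33 ± 0.22 in Line-A (SD, n = 4).

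Nfat5, a transcription factor of the response to salt stress (chr19:52108982-52196418), gave 3.33, 4.35, 3.55 and 3.92 in Line-C by 1398421_at. S-D was at 6.79, 7.02, 6.46 and 6.87, L-E at 6.05, 6.53, 6.10 and 6.07, H/W at 6.04, 6.23, 6.15 and 5.81 and Line-A at 5.76, 5.99, 6.0 and 6.13. Line-C stood apart in every rat, 2.27 below both of its parents. The second ProbeSet of the gene, 1372772_at, did not follow: Line-C was 6.26, 6.59, 6.34 and 6.49, within the 6.06 to 7.17 of the other groups (difference 0.05, adjusted p of the F-test 0.0532, limma).

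The 3 ProbeSets without a gene name were high in S-D and low in most other rats. For 1389986_at, S-D gave 8.14, 8.38, 8.07 and 7.82 and Line-C 4.14, 4.27, 4.21 and 3.27. L-E was split, with 4.8, 7.92, 8.35 and 5.80, and H/W and Line-A lay between 4.06 and 5.89. S-D was 6.31, 6.63, 6.70 and 6.85 for 1390727_at, where Line-C was 3.56, 4.19, 3.26 and 3.18 and Line-A 4.61, 4.01, 3.94 and 3.59, both below the 4.33 to 5.83 of L-E and H/W apart from 1 Line-A rat. For 1377029_at S-D gave 6.72, 6.16, 7.03 and 6.95 and Line-C 4.03, 3.95, 3.88 and 3.76, and H/W rats 3 and 4 stood at 6.70 and 3.19.

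L-E alone lacked Ythdf2, Spink1 and A2m. Ythdf2 encodes a reader of N6-methyladenosine that directs RNA to decay (chr5:149665467-149693127). Its 1371960_at was 2.98, 4.19, 4.15 and 3.83 in L-E, against 8.33, 8.26, 8.35 and 8.12 in S-D, 7.76, 7.54, 6.87 and 8.05 in H/W and 9.51, 9.16, 9.70 and 9.41 in Line-A. Line-C was split, with 9.23 and 8.54 in rats 1 and 4 and 5.43 and 5.54 in rats 2 and 3. All of them lay above every L-E rat, and H/W exceeded L-E by 3.15 and 4.78 within the 2 shared scan days. The 4.78 was H/W rat 1 (7.76) against L-E rat 1 (2.98) alone. Without L-E rat 1 (2.98) the L-E mean passed 4 and Ythdf2 was no longer a member. The second ProbeSet of the gene, 1375695_at, was dim: 3.64 to 3.87 in L-E, 3.35 to 4.01 in Line-C, 3.78 to 3.95 in Line-A, 3.76 to 4.36 in H/W and 4.52 to 5.29 in S-D. Its difference between the groups with and without the member was 0.34, and it did not pass the F-test (adjusted p 0.00109, limma).

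Spink1, a secreted inhibitor of trypsin (chr18:36121626-36133596), was highest in Line-A. Its member 1387193_a_at gave 8.49, 7.81, 7.93 and 8.83 there, with 6.17, 6.25, 5.19 and 5.20 for Line-C, 5.69, 4.64, 5.45 and 6.27 in H/W, 4.5, 5.16, 4.54 and 4.78 in S-D and 3.94, 3.93, 3.15 and 3.73 in L-E. No L-E rat reached any other rat, and Line-A lay 2.75 above the higher parent, H/W. Of the second ProbeSets, 1368447_x_at gave 8.17 to 8.68 in Line-A and 3.91 to 5.63 in L-E, a difference of 2.17 with an adjusted p of 8.99e-05 (F-test, limma). L-E rat 1 at 5.63 overlapped S-D (5.24 to 6.04) and H/W (4.65 to 6.90) there. The suffix of that ProbeSet marks probes that may match other sequences. The remaining one, 1368446_at, gave 5.07 to 5.62 in L-E and 3.44 to 4.44 in S-D and so was not low in L-E (difference -0.44, adjusted p 0.00139). Of 10 markers of exocrine pancreas on the array, where this inhibitor is known from, 8 were under 4 in every group, none passed the F-test, and their mean signal was 3.59 to 3.79 in Line-A, within the 3.44 to 3.88 of all rats. The neighbour Spink1l, 35 kb away, had means of 12.56 to 13.49 in all groups.

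A2m encodes alpha-2-macroglobulin, a protease inhibitor that is a major acute-phase protein of the rat (chr4:156570163-156619870). S-D gave 5.12, 8.27, 7.94 and 6.48, while the other groups lay close together: 4.07, 4.12, 3.74 and 4.06 in L-E, 4.08 to 4.30 in H/W, 4.15 to 4.34 in Line-A and 4.29 to 5.14 in Line-C. L-E counted as lacking with a mean just under 4 (4.0 after rounding), so the contrast was mainly of S-D with all other groups. The S-D rats were spread from 5.12 to 8.27.

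S-D alone had Ddx6 and Ubd. The RNA helicase gene Ddx6, whose product represses translation in P-bodies (chr8:53827661-53864538), gave 7.56, 7.34, 7.16 and 7.51 in S-D by 1389868_at. The other 16 rats lay between 2.23 and 5.14, the highest of them in L-E (2.25, 4.26, 5.14 and 3.38), and no group overlapped S-D. The second ProbeSet, 1398945_at, was at 8.37 to 9.16 in all 20 rats, with a difference of -0.06 and an adjusted p of 0.813 (F-test, limma). The gene was therefore measured in all groups by 1 ProbeSet and in S-D alone by the other.

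Ubd encodes FAT10, a ubiquitin-like modifier induced by interferon and tumour necrosis factor (chr20:1390734-1392685). It rose above the limit in 3 of 4 S-D rats, with 8.41, 7.49 and 8.24, while S-D rat 1 gave 2.35. The other 16 rats lay between 2.30 and 2.48, so S-D rat 1 could not be told from them, and Ubd was the member whose highest and lowest group overlapped. It was no longer a member without any 1 of S-D rats 2, 3 and 4. A2m was also lowest within S-D in rat 1 (5.12). Of 8 markers of T and NK cells on the array 7 were under 4 in every group, with a mean signal of 2.99 to 3.02 in S-D.

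Slc6a6, the taurine transporter (chr4:125752340-125826033), was lacking in H/W alone by the rule. Its 1368778_at was 8.19, 7.72, 7.92 and 8.25 in S-D and 3.87, 3.77, 3.66 and 3.85 in H/W. Line-A lay at 4.56, 4.60, 4.70 and 4.34, Line-C at 4.53, 5.39, 6.09 and 3.84, and L-E from 3.92 and 4.15 to 5.38 and 6.75. The contrast was therefore mainly of S-D with all other groups, 1 L-E rat reaching 6.75. The second ProbeSet, 1374531_at, placed both lines with S-D, at 7.72 to 9.25 in Line-A, 7.98 to 8.94 in Line-C and 8.51 to 9.03 in S-D. L-E was lower there, with 5.65 to 7.62, and H/W gave 5.06, 4.42, 5.50 and 7.75. It followed the member by its difference of 2.37, with H/W rat 4 among the high rats, and did not pass the F-test at the limit of 0.001 (adjusted p 0.0024, limma).

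**Figure D3:**
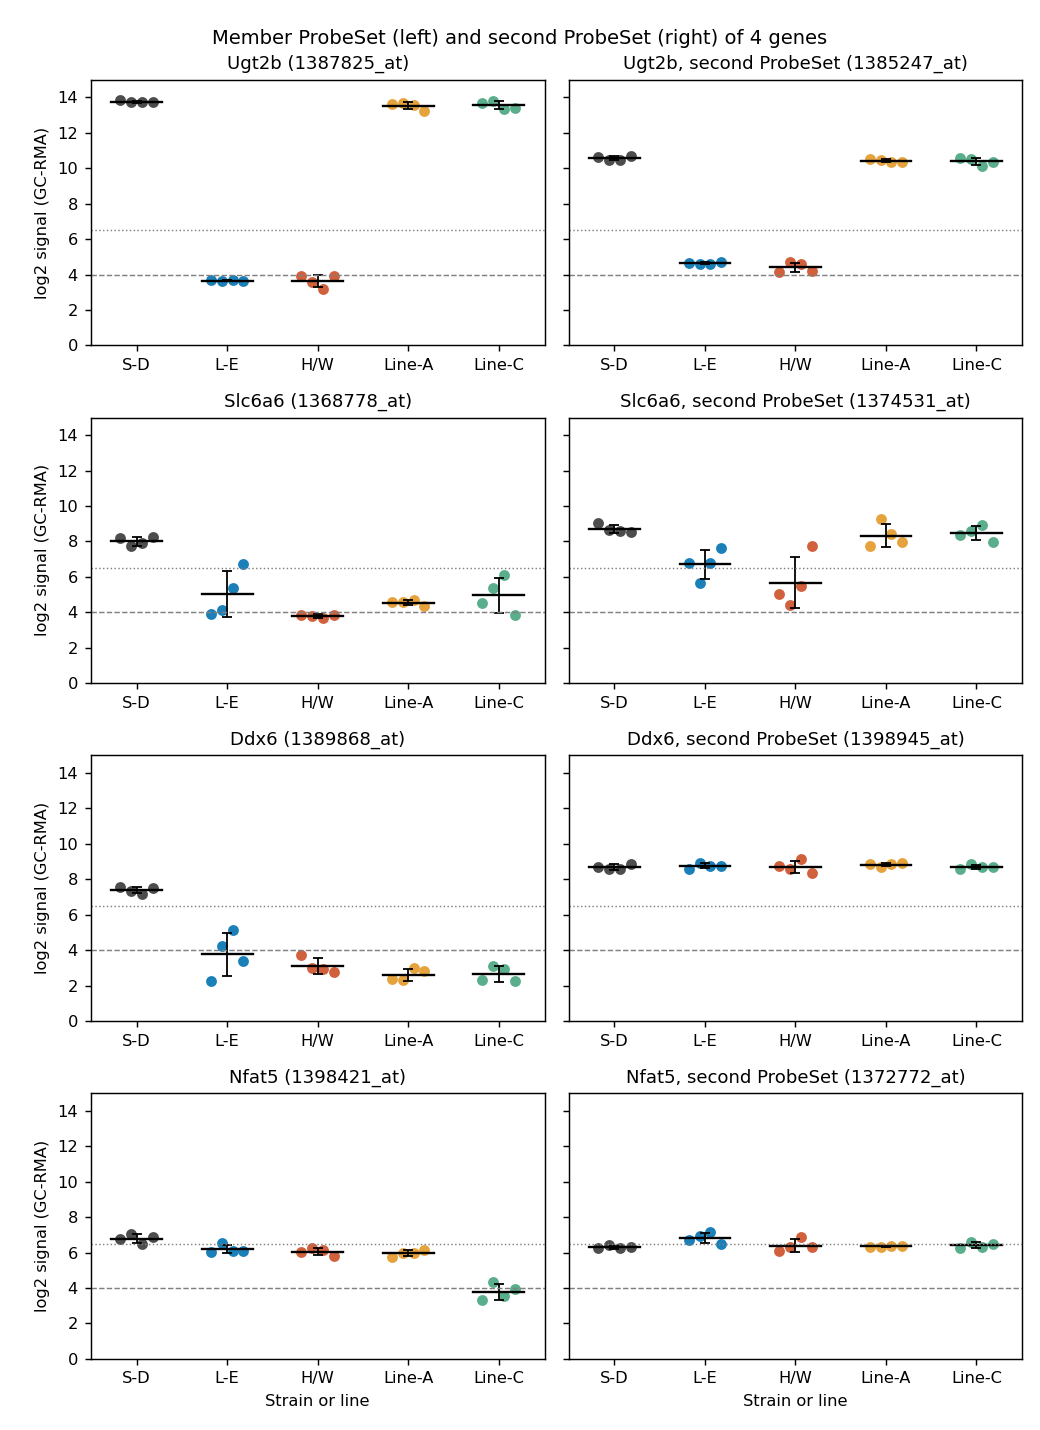
log2 signal per rat (points), with group mean (line) and SD (bar, n = 4), for the member ProbeSet (left) and the second ProbeSet (right) of Ugt2b, Slc6a6, Ddx6 and Nfat5. The dashed line marks 4 and the dotted line 6.5, and the second ProbeSets of Ddx6 (8.37 to 9.16) and Nfat5 (6.06 to 7.17) lie in a narrow band in all groups.

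Line-A alone lacked Itga1 and Tle1. Itga1 encodes integrin alpha 1, which forms a collagen receptor with integrin beta 1 (chr2:48379181-48545336). It gave 3.62, 3.79, 3.59 and 3.66 in Line-A and 7.19, 7.05, 7.24 and 6.23 in Line-C. H/W was high too, with 7.06, 6.56, 6.90 and 6.79, whereas L-E gave 3.58, 5.33, 5.05 and 4.5 and S-D 6.28, 6.90, 5.05 and 7.12. Among the parents H/W was the higher by 2.21, and among the lines Line-A, which shares the Ahr variant of H/W, was the lower by 3.26. One L-E rat fell at the level of Line-A. Tle1, a co-repressor of the Groucho family (chr5:90898182-90982118), was highest in L-E with 7.30, 6.94, 6.40 and 5.64, and H/W gave 5.80, 6.68, 6.03 and 5.88. Line-A gave 4.94, 2.38, 4.29 and 3.64 and Line-C 3.82, 4.13, 4.94 and 3.90, so both lines lay below every rat of both parents and overlapped each other. The S-D mean, 5.13, lay between, and its rats (4.86 to 5.64) overlapped both lines and reached the lowest L-E rat.

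Olr59 and Adh4 were lacking in S-D alone. Olr59 is an olfactory receptor gene of chromosome 1 (chr1:166604972-166639634), 1 of a large family whose members resemble each other. It gave 3.93, 3.92, 3.11 and 4.87 in S-D and 7.55, 8.84, 8.76 and 8.62 in Line-A. L-E followed with 7.86, 7.36, 7.16 and 8.00, H/W with 6.14, 5.07, 6.15 and 6.64 and Line-C with 5.18, 4.99, 4.72 and 4.49, where S-D rat 4 overlapped Line-C. Adh4, an alcohol dehydrogenase of the liver (chr2:229622092-229640120), was 3.70, 3.71, 3.15 and 3.71 in S-D and 6.71, 7.03, 7.46 and 7.44 in Line-C. L-E lay just over the limit at 4.14, 4.12, 4.13 and 4.07, while H/W (5.74, 4.17, 6.92 and 4.69) and Line-A (4.94, 5.70, 7.44 and 4.02) were spread over most of the range between. The H/W rats had the same order in Adh4 as in the Gapdh difference between the 3′ and 5′ ends (0.47, 0.33, 0.81 and 0.36), whose part was not tested. Every S-D rat lay below every other rat.

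Serpina7, the thyroxine-binding globulin of plasma (chrX:107452044-107510958), was lacking in both lines. Line-A gave 4.04, 3.90, 3.24 and 3.31 and Line-C 3.29, 4.02, 4.58 and 3.06. S-D gave 6.26, 8.00, 6.08 and 7.48 and L-E 6.23, 5.77, 5.37 and 4.18. H/W, with 4.37, 4.14, 3.60 and 4.93, overlapped both lines.

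A second ProbeSet was on the array for 10 of the 18 genes. In Agtr1a and Lox both ProbeSets were members. The other 8 genes had 11 second ProbeSets, and 4 of these followed their member by a difference of at least 1 between the groups with and without it, those of Ugt2b (5.94), Slc6a6 (2.37), Spink1 (2.17, 1368447_x_at) and Rab14 (1.03, 1367884_at). With S-D left out, a choice made after the data were seen, 3 followed, and that of Rab14 fell to 0.54. A further 6 were expressed and differed by less than 1 either way, called flat here. They were those of Rab14 (0.90 and -0.65), Ythdf2 (0.34), Nfat5 (0.05), Ddx6 (-0.06) and Spink1 (-0.44). That of Marveld1 was unexpressed. None ran opposite by 1 or more (0 ProbeSets). The limit of 1 takes no account of overlap. The Rab14 ProbeSet at 0.90 (1376796_at) split the rats as the member did, whereas that at 1.03 (1367884_at) did not. Past the F-test were 5 of the 11, beside 4.60% of all ProbeSets, namely those of Ugt2b, 1 of Spink1 and the 3 of Rab14. Which stretch of each gene a ProbeSet reads was not analysed here, and a variant under the probes and a missing transcript cannot be told apart from 1 ProbeSet.

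**Figure D4:**
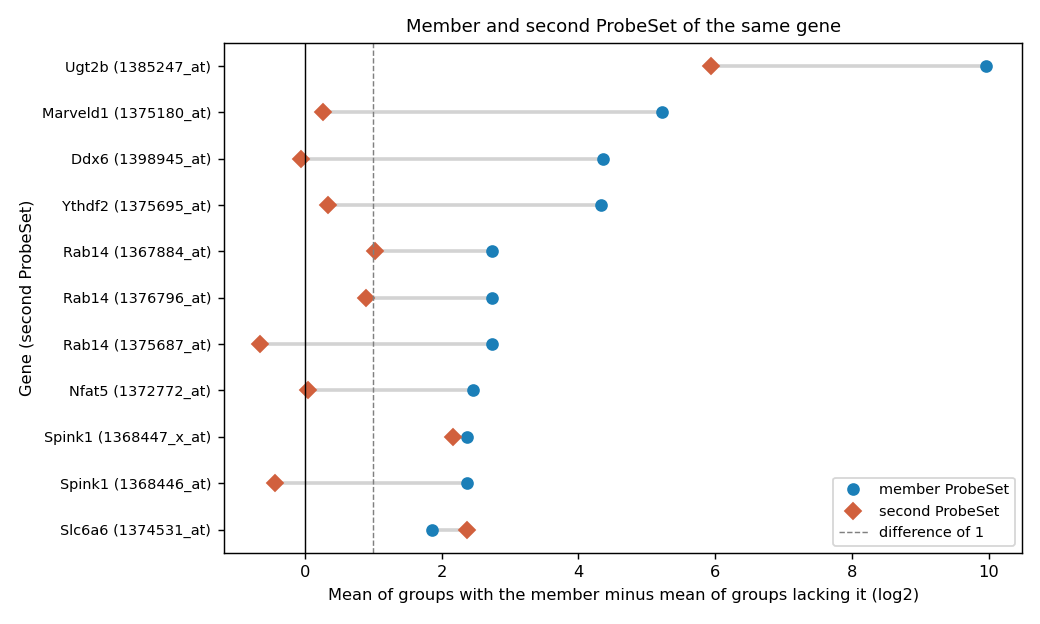
Mean of the groups with the member minus mean of the groups lacking it (log2) for the member ProbeSet (circle) and each second ProbeSet (diamond) of the same gene. The second ProbeSets of Ugt2b (5.94), Slc6a6 (2.37) and 1 of Spink1 (2.17) lie well to the right of the dashed line at 1, and those of Ddx6, Nfat5 and Marveld1 lie near 0.

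The lines were set against their parents next. H/W and L-E differed by at least 2 in 6 ProbeSets, those of Agtr1a, Marveld1, Rab14, Ythdf2 and Itga1, and in all 6 Line-A and Line-C also differed by at least 2. In 5 of the 6 the direction was the same, and Itga1 was the exception. The lines differed by at least 2 in 12 ProbeSets in all, so for 6 of them (Lox with both, RT1-N2, Olr59, Nfat5 and Spink1) the parents differed by less than 2. Line-C lay more than 1 below both parents in 7 ProbeSets and above both in 2, Ugt2b and Adh4. Line-A lay above both in 6 and below both in 2, Tle1 and 1390727_at. Line-A and Line-C were scanned on 1 day and the parents on other days, so a distance of a line from its parents and the scan day cannot be told apart, whereas the difference between the lines was within 1 day.

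**Figure D5:**
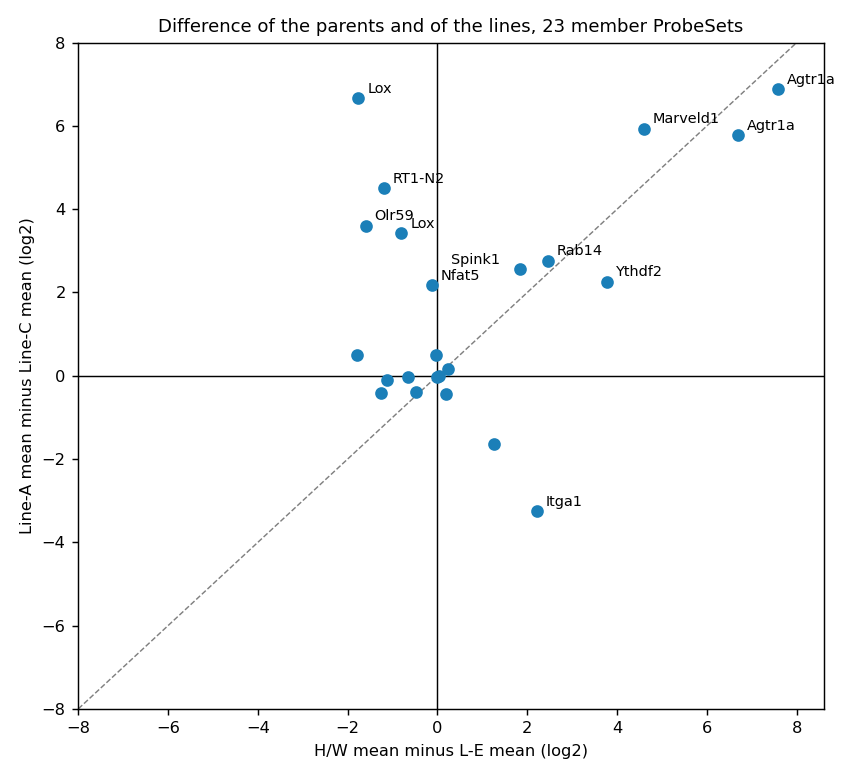
H/W mean minus L-E mean (horizontal axis, log2) against Line-A mean minus Line-C mean (vertical axis, log2), 1 point per member ProbeSet, with the dashed line where both are equal. Agtr1a, Marveld1, Rab14 and Ythdf2 lie at the upper right, Itga1 at the lower right, and Lox, RT1-N2 and Olr59 at the upper left.

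The surroundings of the members on the current rat annotation were compared with all ProbeSets. Within 1 Mb of a member gene lay 263 ProbeSets of 220 other genes, of which 20 (7.6%) passed the F-test, beside 4.60% overall. The neighbours of Agtr1a (4), Rab14 (14), Ythdf2 (18), Slc6a6 (16) and Olr59 (21 ProbeSets) held none that passed (0 each). The same was true of Ubd (13), Itga1 (6), Serpina7 (3) and Lox (2). Nfat5 had the most, 5 of 16, among them Nqo1, a quinone reductase 9 kb away, with a mean of 9.47 in L-E, 8.76 in Line-A and 8.81 in Line-C against 5.67 in S-D and 5.46 in H/W. That pattern was not the one of Nfat5, which Line-C alone lacked. Beside Ddx6, both ProbeSets of Hyou1, a chaperone of the endoplasmic reticulum 213 kb away, passed. Means by 1371442_at were 9.83 in S-D and 9.68 in H/W against 8.10 in Line-A, 7.04 in Line-C and 6.40 in L-E. With H/W near S-D, that pattern was not the one of the Ddx6 member, which S-D alone had.

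Over all 163 list ProbeSets that are no members, markers and gene families together, 20 passed the F-test (12.3%, beside 4.60%). Among 8 Kupffer cell and macrophage markers 5 passed, with a mean over the list of 7.52 to 7.62 in Line-A against 7.96 to 8.80 in all other rats. Line-A lacked Itga1 and Tle1 and was high in Spink1 and Lox, and the part of the macrophage markers in these was not tested. Markers of skeletal muscle (5) and of kidney and adrenal cortex (6 genes on the array) were under 4 in every group.

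Some members lay close to the limits. Just inside the upper one were Tle1 (6.57), 1390727_at (6.62) and Ubd (6.62), and just outside it Ssx2ip (6.46), 1375751_at (6.41) and Map3k1 (6.31). The lowest group mean was just under 4 for A2m, 1389986_at (3.97) and Olr59 (3.96) and just over it for Crot (4.14), 1389990_at (4.15) and Ephx2 (4.16). Of these last 3, 1389990_at had a gap of 6.99 (11.14 in H/W) and Ephx2, soluble epoxide hydrolase, 1 of 6.22 (10.38 in L-E), larger than most members. Leaving out 1 array removed 6 of the 23 members at least once, namely Ubd, Tle1, Olr59, Ythdf2, A2m and 1389986_at, and the other 17 were kept each time. A gap of 2.5 could exclude nothing, since a highest mean of at least 6.5 with a lowest under 4 always gives a wider one.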

How the data were processed

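Total liver RNA of 20 rats (5 groups of 4) was hybridised to RAE230A arrays. Each deposited value is a log2 signal of 1 ProbeSet, made by the authors with GC-RMA (background corrected by probe GC content, arrays set to a common distribution, probes summarised). Their notes name R 2.6.1, affy 1.12.0 and GCRMA 2.10.0. Values were used unscaled. Array medians lay between 3.47 and 3.69. For arrays the number of rats limits the precision, and no read depth applies. No 2 arrays were identical (0 pairs).

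Of 15923 ProbeSets, 12789 had 1 gene symbol in the platform annotation, 312 several and 2822 none, and genes were named from the first kind. Members were found from group means in Python 3.11.15 with pandas 2.3.3. Their group differences carry no test, because the rule used them. Second ProbeSets, neighbours and lists were tested with the moderated F-test over 5 group means in limma 3.58.1 (R 4.3.3), adjusted by Benjamini and Hochberg over all ProbeSets and called under 0.001. The step was tested on simulated data. A second ProbeSet followed at a difference of 1, was unexpressed with all group means under 4, and was otherwise flat. Named with values were the members of largest gap, those with an expressed second ProbeSet or split groups, that of largest gap in each pattern, and those beside a limit, which left only Adh4, added after its values were seen. Neighbouring genes with values were chosen after they were seen. For the mean over a list, each gene was taken by its ProbeSet with the highest mean over all rats. The members and lists were chosen with earlier results of these data known. Alternatives were other limits, medians, further scaling, other settings of limma, scan day or replicate number as a block and leaving out each array, with statmod 1.5.0 for the random block.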

Additional observations from a re-analysis of the deposited data

Results flagged for a closer look

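In each group of 4 rats, the rat at either end was set against the others by Dixon's test, for the 23 member and 11 second ProbeSets. Of 170 groups 11 held a rat apart, where chance gives about 1 in 20. In 3 of the 11 the group spanned at least 1 log2 unit. RT1-N2 was 5.08 in H/W rat 2, below the 8.74 to 9.26 of the others. Ubd was 2.35 in S-D rat 1, below 7.49 to 8.41. The unnamed ProbeSet 1389986_at was 3.27 in Line-C rat 4, below 4.14 to 4.27.

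The other 8 spanned less than 1 log2 unit. They were Lox in Line-C rat 3 (3.12, 1368171_at) and rat 1 (3.46, 1368172_a_at), RT1-N2 in S-D rat 1 (3.90), Adh4 in S-D rat 3 (3.15), Rab14 in L-E rat 4 (3.35, 1385314_at) and H/W rat 2 (8.08, 1376796_at), Nfat5 in L-E rat 2 (6.53, 1398421_at) and Spink1 in Line-C rat 1 (5.42, 1368446_at). The causes were not tested.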

How the results depend on the processing

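Members rested on the limits more than on single rats. With a lack limit of 3.5, 5 ProbeSets of 5 genes remained (Lox, Ubd, Agtr1a, Marveld1 and Ddx6), 0 lacking in S-D alone, 1 seen in S-D alone, 0 seen in a line and lacking in both parents, 1 lacking in a line and seen in both, and 2 following and 1 flat second ProbeSets. With 4.5 there were 35 members, and 2 seen in a line and lacking in both parents. With the highest group at 6, 1 was lacking in H/W and Line-A alone and 2 were seen in a line and lacking in both parents. With 7, 14 ProbeSets of 11 genes remained, 1 seen in S-D alone and 4 lacking in a line and seen in both parents. A gap of 3, group medians, further quantile normalization and equal array medians gave 19, 24, 22 and 22 members.

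Leaving out 1 array gave 22 to 24 members, of which 17 were kept in every case, and Ubd and Tle1 were lost 3 times each. Members lacking in S-D alone were 1 to 2 (1 without S-D rat 3), those seen in S-D alone 1 to 3 (1 without S-D rat 2, S-D rat 4 or L-E rat 1), those seen in a line and lacking in both parents 1 to 2 (2 without S-D rat 4) and those lacking in H/W and Line-A alone 0 to 1 (1 without L-E rat 1). All 529 gaps of single members under these settings, group medians and further scaling moved by less than 1 SD. For the fits without 1 array this was fixed in advance. Leaving out 1 of 4 rats cannot move a gap that far, so nothing is read from it.

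The F-test called 733 ProbeSets, and 5649 with array weights, 248 with scan day as a random block and 1810 at 1% FDR. List ProbeSets past it were 20, and 70, 10 and 33 under the same settings. Second ProbeSets past it were 5, 8 among ProbeSets with a mean of at least 4, 8 at 1% FDR, 4 with scan day as a random block and 5 to 7 without 1 array. With the replicate number as a block the F-test called 554 ProbeSets, 17 of the lists and 5 second ProbeSets. Samples of the same number had correlations from -0.341 to 0.216, so the numbers do not pair the samples. The causes of these changes were not tested.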
